A study of Mus musculus with 12 samples.

Results

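Prefrontal cortex that had received a virus carrying transthyretin (gene Ttr) was compared with cortex that had received a virus carrying green fluorescent protein (GFP) alone. The comparison used 8 of the 12 poly(A) RNA libraries of the series, 4 per group, taken by their labels. It covered the 18289 genes that passed the expression filter, of 55401 in the count table. All animals were male C57BL/6J mice, 14 weeks old, kept on standard chow with vitamin B12. They had received virus on both sides of the dorsomedial prefrontal cortex 4 weeks earlier.

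The control group carried the adeno-associated virus (AAV) vector pAAV.1-CAG-GFP from Addgene. The vector of the overexpression group, pAAV-CAG-GFP-P2A-Ttr-WPRE.bgH, was prepared to order at a Charité core facility. The remaining 4 libraries came from a knockdown vector of that same facility, in which a U6 promoter drives a Ttr hairpin and CAG drives GFP. They shared the estimate of the spread and are given beside some results. Every group thus had surgery, virus and GFP. The name of the overexpression vector includes WPRE, an element that raises transgene expression, and that of the knockdown vector WPRE3. The name of the control vector does not state whether it has such an element. Between the groups compared, supplier and Ttr went together, so the effect of Ttr and that of the vector preparation cannot be told apart. The CAG promoter is active in most cell types, so the cells that carried Ttr are not fixed by the construct. The P2A peptide lets GFP and transthyretin come from a single transcript. The labels number 4 samples per group without stating that each was a separate mouse. The p-values therefore reflect spread between samples, which may be technical in part. Values of 4 libraries are given in the order of replicates 1 to 4.

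Transthyretin is a secreted protein that carries thyroxine in blood and cerebrospinal fluid, and retinol when bound to retinol-binding protein. In the brain its RNA comes mainly from the epithelium of the choroid plexus. MHC class I molecules show peptides from inside most cells to CD8 T cells. Class II molecules show ingested peptides to CD4 T cells and are carried in brain by activated microglia, border macrophages and entering leukocytes. Class II transcription depends on the coactivator Ciita and on a conserved promoter module that ends in a CCAAT box, and interferons drive many class I, guanylate-binding and antiviral genes through elements built on a repeat of GAAA.

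The sequences of such promoters are printed here because the class II genes and the interferon-inducible genes described further on had higher means together. They are the 250 bases before the RefSeq start site (GRCm38.p6), in the direction of the gene, with CCAAT (on the other strand ATTGG) in capitals for the class II genes H2-Aa and H2-Eb1. For the GTPase gene Igtp and the antiviral gene Ifit1 the capitals mark GAAA, any 2 bases and GAAA again (on the other strand TTTC, any 2 bases and TTTC), called the GAAA repeat here. H2-Aa lies on the minus strand at chr17:34287824-34288073, H2-Eb1 on the plus strand at chr17:34305617-34305866, Igtp on the plus strand at chr11:58199306-58199555 and Ifit1 on the plus strand at chr19:34640639-34640888. The GENCODE model of Ifit1 begins at 34640871, inside its window.
H2-Aa: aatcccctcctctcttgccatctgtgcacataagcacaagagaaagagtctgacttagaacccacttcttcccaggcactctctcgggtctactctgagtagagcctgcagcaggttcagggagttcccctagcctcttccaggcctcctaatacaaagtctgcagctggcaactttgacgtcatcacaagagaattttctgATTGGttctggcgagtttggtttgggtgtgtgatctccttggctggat
H2-Eb1: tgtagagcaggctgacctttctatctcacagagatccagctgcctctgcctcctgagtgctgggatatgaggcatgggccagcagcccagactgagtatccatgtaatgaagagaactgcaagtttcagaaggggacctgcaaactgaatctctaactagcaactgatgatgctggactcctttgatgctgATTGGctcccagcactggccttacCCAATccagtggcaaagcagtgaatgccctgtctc
Igtp: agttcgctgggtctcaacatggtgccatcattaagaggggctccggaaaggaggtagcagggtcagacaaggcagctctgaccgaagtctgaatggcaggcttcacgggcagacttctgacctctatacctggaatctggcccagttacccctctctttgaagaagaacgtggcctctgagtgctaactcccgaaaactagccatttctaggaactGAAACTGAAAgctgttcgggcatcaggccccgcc
Ifit1: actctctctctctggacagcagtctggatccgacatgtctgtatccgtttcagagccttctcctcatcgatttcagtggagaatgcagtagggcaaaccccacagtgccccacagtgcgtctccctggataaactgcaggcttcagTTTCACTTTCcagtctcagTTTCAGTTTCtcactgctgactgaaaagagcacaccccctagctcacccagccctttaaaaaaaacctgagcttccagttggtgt
The box of H2-Aa begins 48 bases before the start site, and those of H2-Eb1 begin 59 and 35 bases before it. In Igtp the single match begins 34 bases before the start, and in Ifit1 the matches begin 104 and 85 bases before it. CCAAT on either strand was present in 7 of the 8 class II genes that had a table entry (87.5%), in 7 of 12 class I genes (58.3%) and in 37.5% of the 27025 genes in the table. The GAAA repeat, on either strand, was present in 9 of 10 interferon-inducible GTPase genes (90%), 8 of 23 interferon-stimulated genes (34.8%), 2 of 12 class I genes, 1 of 8 class II genes (Ctss) and 3.46% of all genes. Matches to each motif were counted separately, whether or not they overlapped. H2-Ab1, Cd74 and Ciita had no entry. These matches describe letters in a window and not bound sites.

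Total counts were 21960429 to 37166146 per library, of which 4.59% to 5.94% came from mitochondrial genes. Libraries of a group differed from each other by more than sampling noise (chi-square per degree of freedom of 5.002 to 26.13). The common dispersion of edgeR had a square root of 0.126. The leading principal component held 35% of the variance. Its scores were -18.08 to -11.54 in the controls, and 15.69, -17.39, 16.92 and 46.28 in overexpression replicates 1 to 4. On this component replicate 2 thus lay among the controls and replicate 4 farthest from them. On the next component (22.6% of the variance) overexpression replicates 2 and 3 scored 23.99 and 18.35, above the control range of -31.12 to 14.72. The excitatory cortical marker Slc17a7 (vesicular glutamate transporter) stood at 1436 ± 65.6 TPM in controls and 1371 ± 102 TPM with overexpression (SD, n = 4), so it was abundant in the tissue labelled cortex.

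Ttr was abundant in all 4 overexpression libraries and scarce in the controls. It is the gene ENSMUSG00000061808, on the plus strand of chromosome 18 from 20665280 to 20674321. Its level in TPM (abundance per transcript length, scaled to the same total in each library) was 1425, 553, 562 and 208 with overexpression and 1.22, 17.5, 1.05 and 1.67 in controls. The groups did not overlap, with overexpression replicate 1 highest and replicate 4 lowest of that group. By TPM Ttr ranked 32nd, 178th, 164th and 754th among all genes of overexpression replicates 1 to 4, against places 8155 to 16916 in the controls. In CPM (counts scaled to a common library size with TMM factors), the edgeR difference was 7.01 ± 0.81 on the log2 scale (SE, 95% interval 5.26 to 8.76, adjusted p = 0.0168). Virus-derived and mouse transcripts of Ttr were not separated in the counts.

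**Figure D1:**
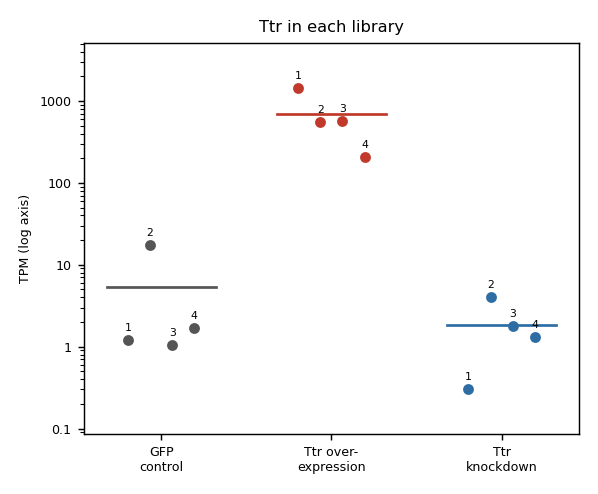
Ttr abundance in TPM (log axis) in each of the 12 libraries, with replicate numbers beside the points and the group mean as a bar. The 4 overexpression libraries sit between 208 and 1425 TPM, all above the controls, of which replicate 2 is highest at 17.5 TPM.

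Control replicate 2 held 200 Ttr counts, where the other controls held 14, 18 and 18. The choroid plexus epithelium is the natural source of Ttr in brain, and values of 2 of its genes follow for that library. Both were picked by role. Of the 18 listed genes of this epithelium 9 fell below the filter, Folr1 and Otx2 among them. Kl, a coreceptor for fibroblast growth factor 23 made there, had 2.42 CPM in that library and 2.62 to 3.27 in the other controls. Kcnj13, a potassium channel of the same epithelium, had 0.212 CPM there and 0 to 0.874 in the others. The summed level of the choroid plexus list was 249 TPM in control replicate 2 and 177 to 214 TPM in the other controls. Its mean log2 CPM over tested genes, minus the control mean, was 0.078 in that library and -0.24 to 0.33 in the other controls. The source of the Ttr counts in control replicate 2 was not tested. Without control replicate 2 the difference in Ttr was 9.02 on the log2 scale. The call was lost without control replicate 1, 3 or 4, or without overexpression replicate 3 (6.69, 6.58, 6.73 and 7.08, with edgeR adjusted p of 0.143, 0.0922, 0.162 and 0.0506). It was also lost with limma-voom (7.83, adjusted p = 0.173) and when edgeR was fitted to the 8 libraries alone (7.01, adjusted p = 0.264).

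Ttr was the single gene that rose by the edgeR test (0.00547% of genes tested), and no gene fell (0%). DESeq2 called 40 genes, 39 of them higher, edgeR without a filter on low counts called 20, all higher, and limma-voom called 0. An unadjusted edgeR p under 0.05 was reached by 838 genes on the higher side (4.58%) and 307 on the lower side (1.68%). In 344 genes all 4 overexpression libraries lay above all 4 controls (1.88%), and in 153 all 4 lay below (0.837%). These shares are the background for every gene list below. The lists and their members were chosen with earlier results of these data known, so list counts set beside these shares are descriptive and not a test. Over all genes tested, 51.4% of the log2 differences were positive and the median was 0.0038.

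**Figure D2:**
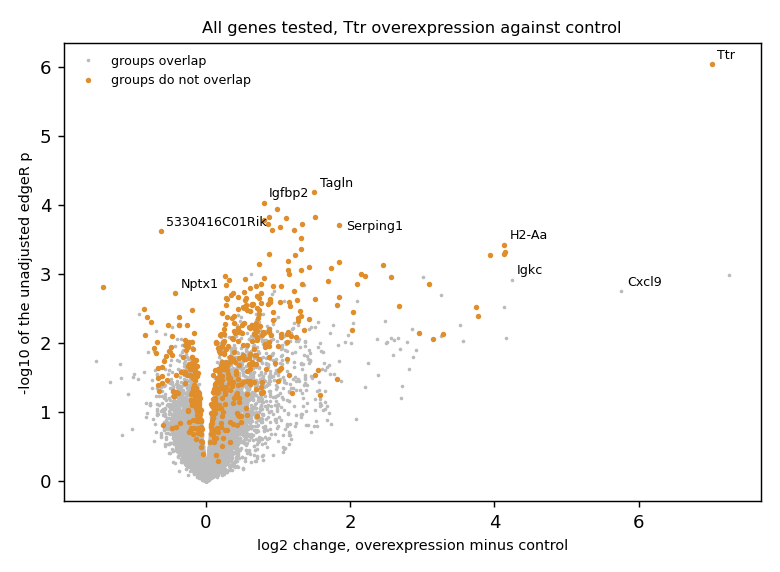
Log2 difference of overexpression minus control (horizontal) against the negative log10 of the unadjusted edgeR p (vertical) for the 18289 genes tested, with genes whose groups did not overlap in orange. Ttr, at 7.01, has the smallest p, and the next smallest p-values belong mainly to genes with higher means.

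Of the next 15 genes in order of p-value, 14 had higher means with overexpression and all 15 had groups that did not overlap. None passed by the main edgeR test (adjusted p = 0.297 for those down to the lincRNA 5330416C01Rik and 0.345 for Ifitm1). DESeq2 called all 15, with adjusted p from 9.03e-05 for Tagln to 0.0337 for Ifitm1. Without the filter, edgeR called Tagln, Igfbp2, Cp, Aox3, Myh11, Mrc1, Slc6a13, Serping1, Colec12 and Slc13a3. Tagln, which encodes the smooth muscle protein transgelin, had 7.84, 4.80, 14.9 and 9.72 CPM with overexpression and 2.80 to 3.60 CPM in controls. Replicate 3 was highest and replicate 2 closest to the controls. The difference was 1.5 ± 0.26 on the log2 scale, and Tagln overlaps exons of Pcsk7 on the other strand, so reads of this pair may be mixed if strand was not used.

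Secreted proteins were among these genes. Serping1, the inhibitor of complement C1, had 8.76, 6.21, 13.5 and 16.3 CPM against 1.87 to 5.27 in controls (1.84 ± 0.36 on the log2 scale). Clec3b, the plasminogen-binding protein tetranectin, had 2.26, 1.28, 2.65 and 2.93 CPM against 0.765 to 1.16 (1.23 ± 0.24). Cp, the ferroxidase ceruloplasmin, had 20.4, 16.3, 26.4 and 25.8 CPM against 8.81 to 13.9 (0.99 ± 0.18). In each of these genes replicate 2 was the lowest of the overexpression libraries. Colec12, a scavenger receptor, and Slc13a3, a dicarboxylate transporter, had log2 differences of 1.02 ± 0.20 and 0.91 ± 0.18. Slc16a12, a monocarboxylate transporter, had 0.86 ± 0.17, and Aox3, an aldehyde oxidase, 1.51 ± 0.29. Ifitm1, an interferon-induced membrane protein, had 1.32 ± 0.27.

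The lincRNA 5330416C01Rik was the exception to the direction. It had 4.33, 4.43, 4.12 and 3.60 CPM with overexpression and 5.57 to 7.31 CPM in controls, a log2 difference of -0.63 ± 0.13. Knockdown libraries had 4.08 to 5.63 CPM, so their range reached into that of the controls.

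Genes of meningeal fibroblasts had higher means with overexpression throughout. These cells form the pia and arachnoid that cover the cortex. All 21 of 21 listed genes had positive differences, 20 had an unadjusted edgeR p under 0.05 and in 9 the groups did not overlap. None passed by edgeR over all genes, while DESeq2 called Igfbp2, Slc6a13, Slc6a20a and Bgn. The median was 1.15 on the log2 scale, against 0.0038 over all genes. Their summed level was 1359 to 2553 TPM in the overexpression libraries and 423 to 1362 TPM in controls, so overexpression replicate 1 and control replicate 3 met. In a bulk sample more cells of a type and more RNA per cell cannot be told apart.

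Solute transporters are part of this list. Slc13a4, a sulphate transporter, had 10.7, 10.2, 20 and 14.6 CPM with overexpression and 3.48, 3.48, 6.99 and 1.04 CPM in controls. Every overexpression library lay above every control, and control replicate 4 was lowest (1.85 ± 0.49 on the log2 scale, edgeR adjusted p = 0.567). Slc6a13, a GABA transporter, had 9.92, 8.38, 14.0 and 10.4 CPM against 4.64, 3.36, 6.31 and 2.43 (1.33 ± 0.26). The organic anion transporter gene Slc22a6 had a difference of 1.74, also without overlap.

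Enzymes, growth factor genes and matrix genes make up most of the rest. Aldh1a2, the retinaldehyde dehydrogenase of the meninges, had 9.80, 7.86, 16.0 and 10.2 CPM against 3.81, 2.21, 4.75 and 1.17 (1.85 ± 0.42). Ptgds, the prostaglandin D synthase, had 379, 595, 743 and 518 CPM against 185, 287, 399 and 122 (1.17 ± 0.39), and here overexpression replicate 1 lay below control replicate 3. Igf2, an insulin-like growth factor, had 1.11 to 1.90 CPM against 0.304 to 1.04 (1.28 ± 0.37). Igfbp2, which binds such factors, had 25.4, 30.2, 35.2 and 39.4 CPM against 15.1 to 23.3 (0.80 ± 0.14). The collagen gene Col1a1 had 7.08 to 13.4 CPM against 1.82 to 7.81 (1.10 ± 0.36), with overlap.

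Single libraries moved these values. Control replicate 4 had the lowest meningeal level of the 8 libraries and overexpression replicate 3 the highest. With both left out, a setting chosen after the data were seen, the median of the list was 0.70. Leaving out single libraries gave 0.90 to 1.58. In the knockdown libraries, compared with the same controls, the median of the list was 0.26 and the summed level 618 to 1719 TPM. The direct edgeR difference between overexpression and knockdown was 1.25 ± 0.47 for Slc13a4 (adjusted p = 0.967) and 1.31 ± 0.41 for Aldh1a2 (adjusted p = 0.95).

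**Figure D3:**
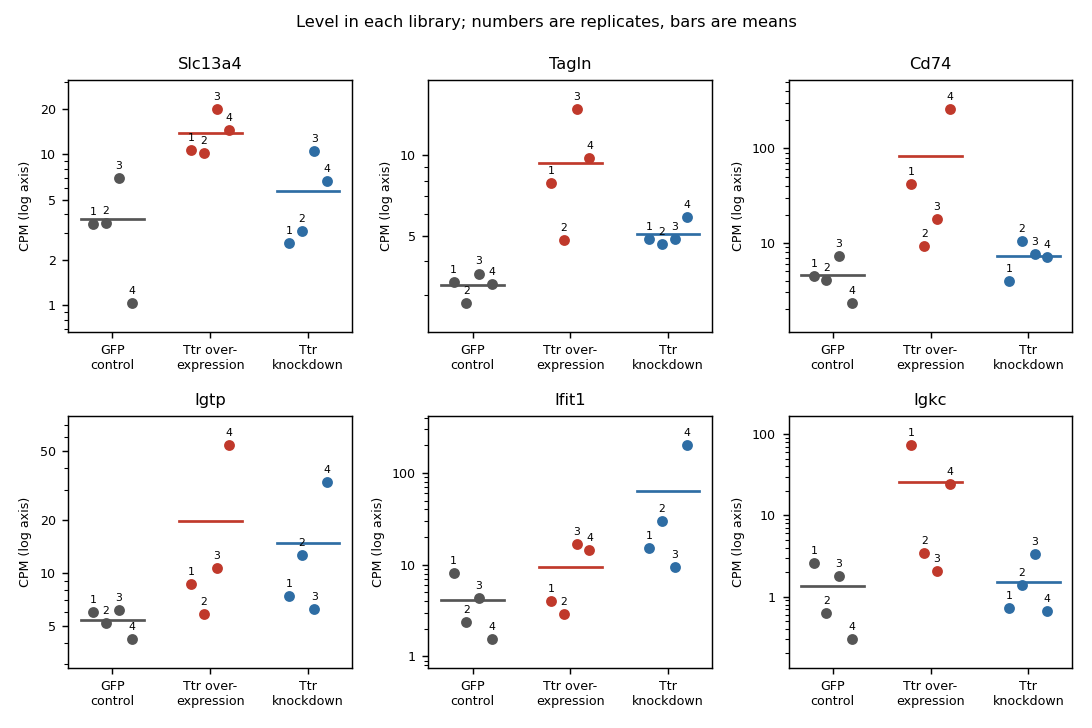
CPM (log axis) of 6 genes in each of the 12 libraries, with replicate numbers beside the points and group means as bars. Slc13a4 and Tagln are above all controls in each overexpression library, Cd74 and Igtp are highest in overexpression replicate 4, Ifit1 is highest in the knockdown group and Igkc stands out in overexpression replicates 1 and 4.

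Contractile genes of arterial smooth muscle had higher means, none of them past the adjusted threshold by edgeR, and genes of pericytes went both ways. DESeq2 called Tagln, Acta2, Myh11, Cnn2 and Myl9. Of 17 tested genes of the vessel wall 15 were positive, 11 had an unadjusted edgeR p under 0.05 and 6 did not overlap (Cnn1, Tagln, Cnn2, Vtn, Myh11 and Acta2), with a median of 0.42. Acta2, smooth muscle actin, had 9.25, 7.58, 20.4 and 12.1 CPM against 3.31 to 5.92 in controls (1.32 ± 0.28). Myh11, smooth muscle myosin, had 8.0, 7.58, 13.6 and 10.3 CPM against 4.80 to 6.01 (0.87 ± 0.17), and Cnn2, a calponin, 6.26 to 8.74 CPM against 3.69 to 4.78 (0.80 ± 0.15). Replicate 3 was the highest library for each of these. Among pericyte genes, Vtn, vitronectin, had 63.6, 57.5, 75.9 and 66.6 CPM against 51.1 to 55.7 (0.29 ± 0.08), above every control. Anpep, an aminopeptidase, had 5.22, 5.72, 8.56 and 5.42 CPM against 2.34 to 5.68 (0.78 ± 0.26), and Higd1b 1.65, 2.14, 2.26 and 1.82 CPM against 1.88 to 3.15 (-0.36 ± 0.20). Pdgfrb and Rgs5 had differences of 0.14 ± 0.09 and 0.11 ± 0.09, with intervals of -0.04 to 0.32 and -0.08 to 0.30. Meningeal markers moved with the contractile genes (above), and their part in these values was not tested.

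Genes listed for macrophages of the brain's borders showed a mixed picture. All 10 tested genes of 12 were positive with a median of 0.73, 5 had an unadjusted edgeR p under 0.05 and 3 did not overlap. None passed by the main edgeR test, while DESeq2 called Mrc1 and Siglec1. Mrc1, the mannose receptor, had 7.42, 6.18, 8.92 and 5.51 CPM against 3.64, 3.48, 3.93 and 1.87 (1.11 ± 0.21). Cd163, a haemoglobin scavenger receptor, had 1.55 to 2.04 CPM against 0.564 to 1.49 (0.75 ± 0.23), and the sialic acid-binding receptor Siglec1 had a difference of 2.45. Lyve1 and Pf4, which mark the same resident cells, had differences of 0.11 ± 0.64 and 0.11 ± 0.42 and groups that overlapped. Lyve1 was at 0.061 CPM in overexpression replicate 1 and at 1.36 CPM in replicate 3.

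MHC class II genes had log2 differences of up to 4.14, at levels that varied widely between overexpression libraries. All 11 genes were positive with a median of 1.87, 8 had an unadjusted edgeR p under 0.05, and 4 did not overlap. H2-Aa, the alpha chain of the class II molecule, had 20.3, 4.25, 8.31 and 105 CPM with overexpression and 1.70, 1.70, 3.19 and 0.868 CPM in controls. Replicate 2 lay just above the highest control and replicate 4 far above all others. The difference was 4.14 ± 0.87 on the log2 scale (edgeR adjusted p = 0.409). H2-Ab1 and H2-Eb1, the beta chains, had 4.14 ± 0.90 and 3.93 ± 0.86. DESeq2 called H2-Aa, H2-Ab1, H2-Eb1 and Cd74 (adjusted p of 0.00172 to 0.00569).

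The chaperone and the regulator of class II followed the same order of libraries. Cd74, the invariant chain, had 42.2, 9.20, 17.7 and 262 CPM against 4.51, 4.04, 7.34 and 2.34 (4.13 ± 0.91). Ciita, the coactivator, had 0.885, 0.214, 0.788 and 5.6 CPM against 0.497, 0.170, 0.300 and 0.130 (2.67 ± 0.86), with replicate 2 inside the control range and 3 to 12 counts per control library. H2-DMa, which loads peptides in the endosome, had 16.0, 10.5, 12.9 and 24.1 CPM against 11.2 to 15.3 (0.23 ± 0.20). Without overexpression replicate 4 the median of the list was 0.61, Cd74 had 2.30 and H2-Aa 2.49, and H2-DMa turned to -0.05. The knockdown libraries had 3.93 to 10.4 CPM of Cd74, and the list's median there was 0.57. The direct difference between overexpression and knockdown was 3.48 ± 0.87 for Cd74 (edgeR adjusted p = 0.855).

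MHC class I genes were likewise all positive, 14 of 14, with a median of 0.89 and 8 with an unadjusted edgeR p under 0.05, but in none did the groups separate. H2-K1, a class I heavy chain, had 64.9, 28.6, 54.5 and 201 CPM against 24.0 to 32.1 (1.55 ± 0.53), and B2m, the light chain, 113, 78.8, 123 and 274 CPM against 56.6 to 88.2 (1.01 ± 0.40). Replicate 2 lay within the control range for both. Nlrc5, the coactivator of class I, had 3.42, 1.01, 4.19 and 15 CPM against 0.564 to 1.36 (2.48 ± 0.73). The peptide transporter gene Tap1 had 1.65 ± 0.65, and its exons overlap those of Psmb9 on the other strand. Without overexpression replicate 4 the median was 0.41. The knockdown libraries had a class I median of 0.85 and 38.0 to 136 CPM of H2-K1.

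Interferon-inducible GTPases, which restrict intracellular pathogens, were positive in 14 of 14 with a median of 1.93. Of these 12 had an unadjusted edgeR p under 0.05, and Tgtp1 and Ifi47 did not overlap. None passed by the main edgeR test, while DESeq2 called Tgtp1 (adjusted p = 0.0128). Igtp had 8.67, 5.84, 10.7 and 54.0 CPM against 4.21 to 6.14 in controls (1.85 ± 0.69). Iigp1 had 6.07, 1.74, 8.85 and 39.8 CPM against 1.17 to 2.76 (2.79 ± 0.92), and Gbp2 9.37, 3.94, 13.3 and 42.6 CPM against 3.08 to 4.80 (2.04 ± 0.61). In all 3 replicate 2 was within the controls. Without replicate 4 the median was 0.89 and Igtp had 0.62. The exons of Igtp overlap those of Irgm2 on the same strand, so reads of these paralogs may be shared. The knockdown libraries held 6.19 to 33.1 CPM of Igtp, and the direct difference from overexpression was 0.41 ± 0.65 (edgeR adjusted p = 0.989).

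Antiviral interferon-stimulated genes separated the overexpression libraries in another order. All 34 were positive with a median of 1.03, 5 had an unadjusted edgeR p under 0.05, and Zbp1, Oas2 and Ifi35 did not overlap. Ifit1, which binds viral RNA, had 4.06, 2.90, 16.9 and 14.3 CPM against 8.16, 2.38, 4.29 and 1.56 (1.18 ± 0.99). Irf7, a transcription factor of the interferon loop, had 2.62, 2.48, 16.9 and 11.8 CPM against 1.95 to 4.35 (1.59 ± 0.82), and Isg15, a ubiquitin-like modifier, 1.56, 1.31, 10.9 and 6.39 CPM against 0.781 to 3.56 (1.46 ± 1.08). Replicates 1 and 2 lay within the controls and replicates 3 and 4 above them. Zbp1, a sensor of nucleic acids, had 0.610, 0.306, 2.61 and 6.39 CPM against 0.212 to 0.290 (3.28 ± 1.04).

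The antiviral genes also had higher means than controls with the knockdown vector, in libraries that overlapped those of overexpression. The mean log2 CPM of the list, minus that of the controls, was 1.17, 1.90, 0.89 and 3.58 in the knockdown libraries and 0.26, -0.08, 1.59 and 1.58 with overexpression. Ifit1 had 15, 29.7, 9.38 and 202 CPM there, and the median of the list was 2.2 against the same controls. The direct difference of overexpression minus knockdown for Ifit1 was -2.76 ± 0.90 (edgeR adjusted p = 0.967), while for Zbp1 it was 0.17 ± 0.81 (adjusted p = 0.994). Without overexpression replicate 3 the median of the list was 0.73. With it and control replicate 4 left out it was 0.55.

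Some genes of the lymphocyte list had higher values in replicates 1 and 4, and others did not. Of 23 listed genes 9 passed the expression filter, 7 of them positive with a median of 0.68, 3 with an unadjusted edgeR p under 0.05 and 1 without overlap. The main edgeR test called no member, while DESeq2 called Cd8a and Igkc. Outside the list, DESeq2 called the antibody genes Igha and Ighg2b, with log2 differences of 7.96 and 7.23. Igha was also called by edgeR without the filter. Igkc, the antibody kappa chain, had 73.8, 3.42, 2.04 and 24.6 CPM against 0.304 to 2.61 (4.24 ± 1.03). Jchain, also listed, had a log2 difference of 3.01, with groups that overlapped. Cd8a, which marks cytotoxic T cells, had 16, 4, 12 and 78 counts against 1 to 3 counts in each control. Cd3e, a chain of the T cell receptor complex, did not pass the filter and had 6, 1, 6 and 23 counts against 1 to 3. Ighm, the heavy chain of IgM, had 34.4, 54.5, 25.2 and 73.4 CPM against 45.0 to 65.6 (-0.17 ± 0.26), and turned to 0.029 without replicate 3. Trbc2, a constant region of the T cell receptor, had 15.2, 17.5, 12.9 and 10.7 CPM against 14.1 to 22.7 (-0.37 ± 0.17). Cd4, the coreceptor of helper T cells, had 6.13, 1.90, 3.83 and 8.93 CPM against 1.24 to 10.9 (0.17 ± 0.73), and its direction turned with the library left out. The groups overlapped for Ighm, Trbc2 and Cd4. Cd4 was lowest without overexpression replicate 4 (-0.22) and highest without control replicate 4 (1.03). Leaving out the same libraries gave the lowest and highest values of the striatal gene Adora2a (below). Ighm was far above Igkc in controls, and the cells behind the counts of Ighm and Cd4 were not tested. Replicates 1 and 4 were high in different genes, with Igkc highest in replicate 1 and Cd8a and Cd3e in replicate 4. Without these 2 libraries, a setting chosen after the data were seen, the median of the list was -0.06.

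Chemokines that draw T cells were low in the controls. Of 23 genes 11 passed the filter, 9 were positive with a median of 0.24, 4 had an unadjusted edgeR p under 0.05, and Ccl5 did not overlap. Cxcl9 had 79, 3, 22 and 423 counts against 3, 6, 0 and 1 in controls (5.76 ± 1.48 on the log2 scale), with replicate 2 in the control range and the other libraries in the order of the class II genes. Ccl5 had 33, 8, 16 and 152 counts against 2 to 8 (3.77 ± 1.08), where the groups do not overlap in CPM. Cxcl10 had 1.5, 0.397, 1.72 and 7.10 CPM against 0.217 to 0.414 (2.87 ± 1.04), and its exons overlap those of Art3 on the other strand. Among genes below the filter, Cxcl13, which attracts B cells, had 40, 1, 8 and 115 counts against 0 to 5. The monocyte chemokine Ccl8, also below it, had 73, 6, 30 and 66 counts against 1 to 3. Of the listed genes DESeq2 called Ccl8 (adjusted p = 0.000224) and Cxcl16 (adjusted p = 0.0404), and edgeR without the filter called Ccl8.

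Complement genes were positive in 15 of 15 tested, with a median of 0.50, 7 with an unadjusted edgeR p under 0.05 and 3 without overlap, among them Serping1 and C1s1. C3, the central component, had 3.05, 0.428, 2.33 and 16.5 CPM against 0.382 to 0.998 (3.26 ± 0.85). C4b, of the classical pathway, had 74.9, 16.7, 80.3 and 197 CPM against 30.0 to 47.0 (1.37 ± 0.56), and replicate 2 was below every control. C1qa, made by microglia, had 61.4, 42.4, 61.9 and 136 CPM against 46.9 to 57.1 (0.57 ± 0.29), with replicate 2 below every control and replicate 4 highest. The mean log2 CPM of the list, minus that of the controls, was 0.61, 0.14, 0.70 and 1.30, so that replicate 2 was within the control range of -0.15 to 0.15. The border macrophage list did not follow this order: its mean was lowest in replicate 4, at 0.18 and within its control range of -0.46 to 0.29. The mean log2 CPM of the meningeal list was above every control in each of the 4 libraries, replicate 2 included (1.26). The part of meningeal genes in the complement values was not tested.

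**Figure D4:**
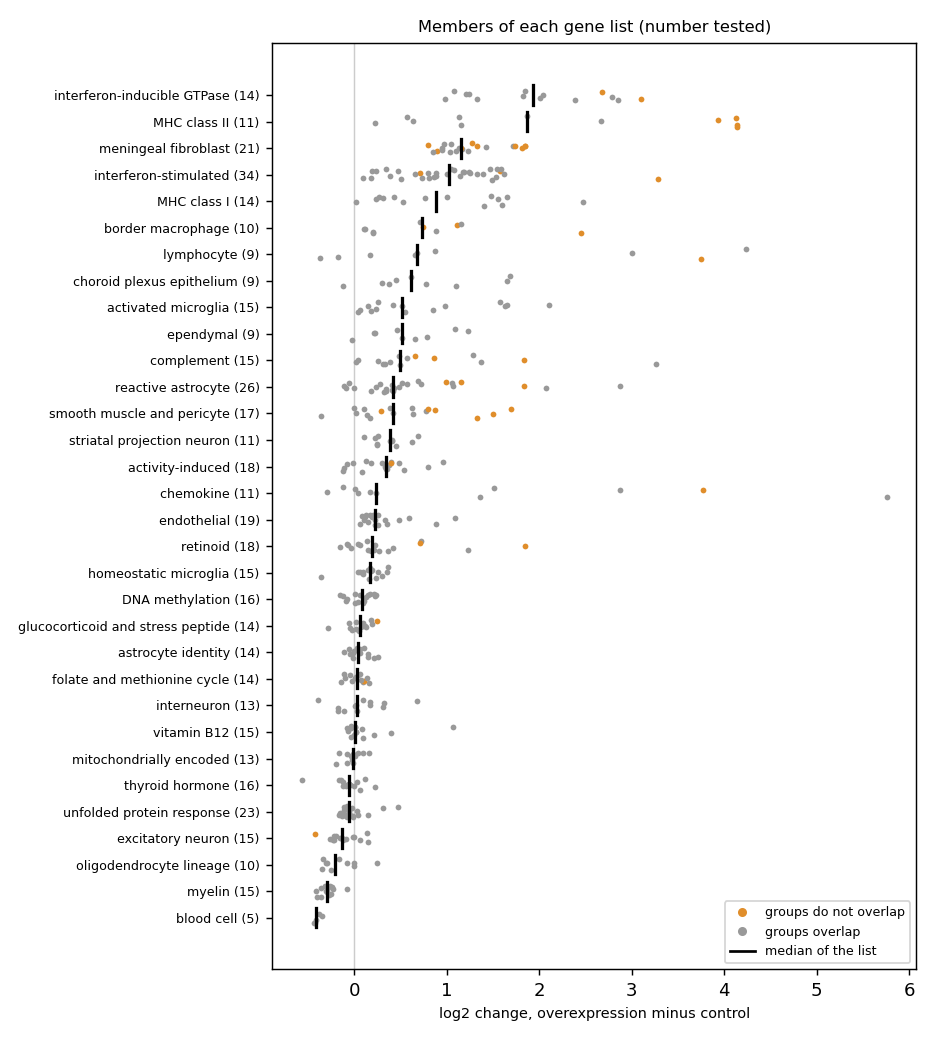
Log2 difference of overexpression minus control for each tested member of 32 gene lists, with the median of each list as a bar and members whose groups did not overlap in orange. Interferon-inducible GTPases, class II, meningeal and interferon-stimulated genes lie farthest to the right, with medians of 1.93, 1.87, 1.15 and 1.03, and blood cell and myelin genes lie farthest to the left at -0.41 and -0.29.

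Of the 4 overexpression libraries, replicate 4 had the highest mean of both the activated and the homeostatic microglial genes. The mean log2 CPM of the activated list, minus that of the controls, was 0.42, -0.17, 0.51 and 1.44 against -0.23 to 0.32 in controls, so that replicates 1 and 3 were also above every control. That of the homeostatic list was 0.10, -0.19, 0.16 and 0.46 against -0.14 to 0.082, with a summed level of 809 TPM in replicate 4 against 488 to 557 TPM in controls. Homeostatic genes had a median of 0.17, with 14 of 15 positive and none on the higher side with an unadjusted edgeR p under 0.05. P2ry12, the purinergic receptor of resting microglia, had 49.3, 35.5, 47.1 and 52.9 CPM against 34.1 to 43.1 (0.19 ± 0.12). Fcrls, a microglial surface gene, had 20.4, 23.2, 24.7 and 15.1 CPM against 23.3 to 28.7 (-0.36 ± 0.13). Activated genes were positive in 15 of 15 with a median of 0.52 and 5 with an unadjusted edgeR p under 0.05, and the median was 0.12 without overexpression replicate 4. Lyz2, lysozyme, had 25.8, 12.1, 23.7 and 40.0 CPM against 10.2 to 17.5 (0.98 ± 0.31). Cst7, an inhibitor of lysosomal proteases, had 0.427, 0.0917, 0.537 and 5.24 CPM against 0.331 to 0.546, so that its difference of 1.65 ± 0.91 became -0.45 without replicate 4.

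Most genes listed for reactive astrocytes had higher means, and astrocyte identity genes were near the controls. Of 26 tested reactive genes 22 were positive, 12 had an unadjusted edgeR p under 0.05 and 3 did not overlap (Serping1, Cp and Steap4), with a median of 0.42. These 3 are also made outside astrocytes. Serpina3n had a difference of 0.34 with overlap, and 0.07 without overexpression replicate 4. Gfap, the intermediate filament that defines reactivity, had 184, 96.0, 218 and 281 CPM against 136 to 200 in controls (0.24 ± 0.25, interval -0.31 to 0.78), and -0.01 without overexpression replicate 4. Vim, another filament, had 43.9, 34.5, 61.9 and 60.7 CPM against 33.9 to 38.0 (0.48 ± 0.16). Lcn2, lipocalin 2, had 12, 63, 0 and 3 counts against 2 to 7, so replicate 2 alone was high. The 14 identity genes had a median of 0.04, and the water channel gene Aqp4 had 0.26 ± 0.17.

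Endothelial genes were positive in 19 of 19 with a median of 0.23, 8 with an unadjusted edgeR p under 0.05 and none without overlap. Vwf, the clotting factor of vessel lining, had 18.3, 11.5, 17.9 and 18.4 CPM against 10.1 to 11.6 (0.59 ± 0.16). Vcam1, an adhesion molecule for leukocytes, had 29.9, 23.4, 35.7 and 40.2 CPM against 20.2 to 25.0 (0.48 ± 0.14). Cldn5, a tight junction gene, had 0.11 ± 0.11 with overlapping groups. Haemoglobin and other blood cell genes were negative in 5 of 5 with a median of -0.41, and Hba-a1 had 64.6 to 94.0 CPM with overexpression against 83.2 to 153 in controls, with overlap.

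Neuronal genes moved little. Excitatory genes had a median of -0.13 with 4 of 15 positive and 2 with an unadjusted edgeR p under 0.05 on the lower side. Nptx1, a pentraxin of excitatory synapses, had 461, 467, 379 and 405 CPM with overexpression and 526, 660, 502 and 613 CPM in controls (-0.43 ± 0.11, edgeR adjusted p = 0.567), and the groups did not overlap. The knockdown libraries had 383 to 531 CPM of Nptx1. Tbr1, a transcription factor of deep cortical layers, had 129 to 171 CPM against 166 to 204 (-0.27 ± 0.10). Interneuron genes had a median of 0.03, and Gad1, which makes GABA, had 0.17 ± 0.17.

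Genes of striatal projection neurons, which are not cortical cells, varied between the libraries of both groups. All 11 had positive differences with a median of 0.39, but the sum over the list was 287 to 1161 TPM in controls and 260 to 1567 TPM with overexpression. Adora2a, the adenosine receptor of the indirect pathway, had 24.1, 2.87, 11.4 and 49.7 CPM with overexpression and 2.98, 17.7, 4.91 and 39.1 CPM in controls. The median was -0.23 without overexpression replicate 4 and 1.00 without control replicate 4. Overexpression replicate 4 had the highest sum of the 8 libraries both for striatal genes (1567 TPM) and for class II genes (1502 TPM), and the part of tissue composition in its immune values was not tested. Control replicate 4 had the highest striatal sum of its group (1161 TPM) and the lowest class II sum (167 TPM).

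Activity-induced genes had a median of 0.34 with 14 of 18 positive, 3 with an unadjusted edgeR p under 0.05 and Nr4a1 without overlap. Fos had 18.1, 8.90, 9.99 and 29.5 CPM against 6.97 to 10.1 (0.96 ± 0.37), and Nr4a1, an orphan nuclear receptor, 74.2, 63.6, 56.5 and 76.2 CPM against 45.3 to 56.1 (0.40 ± 0.13). The nearest libraries of Nr4a1, 56.5 and 56.1 CPM, were almost equal. Egr1 had 0.18 ± 0.16. Without overexpression replicate 4 the median was 0.11. In the knockdown group the same list had a median of 0.65, and the direct difference of overexpression minus knockdown was -0.66 ± 0.13 for Nr4a1 (edgeR adjusted p = 0.855). Glucocorticoid and stress peptide genes had a median of 0.06, with Fkbp5, a cochaperone induced by the hormone, at 0.18 ± 0.12.

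Myelin genes were negative in 15 of 15, with a median of -0.29 and none with an unadjusted edgeR p under 0.05. Mbp, myelin basic protein, had 1716, 1574, 2205 and 2102 CPM against 1620, 3957, 1521 and 2990 CPM in controls. Controls 2 and 4 were high, and the overexpression libraries lay within the control range. Without control replicate 2 the median of the list was -0.03.

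Genes that handle retinol, a ligand carried with transthyretin, included a few with higher means. Of the retinoid list 14 of 18 tested genes were positive with a median of 0.20, 3 had an unadjusted edgeR p under 0.05, and 2 did not overlap, among them Aldh1a2, the meningeal enzyme that makes retinoic acid (above). Rbp4, the secreted retinol carrier that binds transthyretin, had 13.3 to 18.5 CPM against 15.6 to 18.8 (-0.15 ± 0.10, interval -0.36 to 0.06). Stra6, the receptor for that carrier, had 0.26 ± 0.26, and Rarb, a retinoic acid receptor gene that responds to retinoic acid, 20.4, 10.7, 12.3 and 29.1 CPM against 7.99, 11.7, 11.2 and 23.2 (0.42 ± 0.40). Rarb followed the order of the striatal genes in both groups. The part of meningeal tissue in the value of Aldh1a2 was not tested.

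Thyroid hormone genes had a median of -0.05, with 5 of 16 positive and none with an unadjusted edgeR p under 0.05 in either direction. Dio2, the deiodinase that activates the hormone, had 74.9 to 99.6 CPM against 60.3 to 97.0 (0.12 ± 0.13). Dio3, which inactivates it, had 2.78, 0.734, 1.15 and 1.47 CPM against 1.15 to 3.56 (-0.57 ± 0.39). Hr and Klf9, genes that the hormone induces in brain, had -0.08 ± 0.22 and -0.05 ± 0.08. Intervals were -0.56 to 0.41 for Hr and -0.21 to 0.12 for Klf9.

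The title of the series names vitamin B12, and genes of its handling differed little. The 15 tested had a median of 0.0056 with 9 positive and none with an unadjusted edgeR p under 0.05. Tcn2, the plasma carrier of the vitamin, had 15.7, 14.0, 17.0 and 20.5 CPM against 13.5 to 15.4 (0.21 ± 0.13), and its receptor gene Cd320 10.4 to 11.4 CPM against 9.96 to 12.0 (-0.07 ± 0.08). Mtr, methionine synthase, one of the mammalian enzymes that need cobalamin, had 18.0 to 19.8 CPM against 18.1 to 20.2 (0.0048 ± 0.064, interval -0.13 to 0.14). Mut, methylmalonyl-CoA mutase, the other such enzyme, had 39.8 to 40.9 CPM against 35.3 to 40.2 (0.09 ± 0.07). The exons of Mut overlap those of Cenpq on the other strand.

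Downstream of methionine synthase, folate and methionine cycle genes had a median of 0.03 with 9 of 14 positive. Mat2a, which makes S-adenosylmethionine, had 150, 132, 136 and 135 CPM against 124 to 131 (0.10 ± 0.06), without overlap but with an unadjusted edgeR p of 0.123. DNA methylation genes had a median of 0.08 with 12 of 16 positive, and neither list had a member with an unadjusted edgeR p under 0.05. Genes of the unfolded protein response, a reaction to misfolded secretory proteins, were negative in 18 of 23 with a median of -0.06. Hspa5, the main chaperone of the endoplasmic reticulum, had 272 to 322 CPM against 262 to 360 (-0.10 ± 0.09), and the stress-induced factor Ddit3 -0.08 ± 0.08.

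Choroid plexus and ependymal genes were examined because that epithelium is the natural source of Ttr. Of 18 choroid plexus genes 9 passed the filter, with a median of 0.61, 8 positive, 1 with an unadjusted edgeR p under 0.05 (Kcnj13) and none without overlap. Kcnj13 had 24, 38, 57 and 23 counts against 7, 5, 32 and 0 in controls. Otx2, the transcription factor of the epithelium, was below the filter with 10, 0, 5 and 11 counts against 0 to 2. The summed level of the list was 192 to 243 TPM with overexpression and 177 to 249 TPM in controls, which overlap. Averaged over the 9 tested genes, so that low genes weigh as much as high ones, the list was 0.55, 0.41, 0.84 and 0.96 above the control mean in log2 CPM, each above the control range of -0.24 to 0.33. Ependymal genes had a median of 0.52 and overlapped in every member.

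Viewed by library, the lists ordered the 4 overexpression samples differently. Of the 32 lists, the mean level lay above all 4 controls in 17 for replicate 1, 10 for replicate 2, 20 for replicate 3 and 21 for replicate 4. It lay below all 4 controls in 0, 6, 5 and 1. Replicate 4 was the highest of the 8 libraries in 15 lists, replicate 3 in 7, replicate 2 in 2 and replicate 1 in 0. Replicate 4 had the lowest Ttr of its group (208 TPM) and replicate 1 the highest (1425 TPM). With 4 libraries no correlation was computed, and a relation between Ttr and the lists was not tested.

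**Figure D5:**
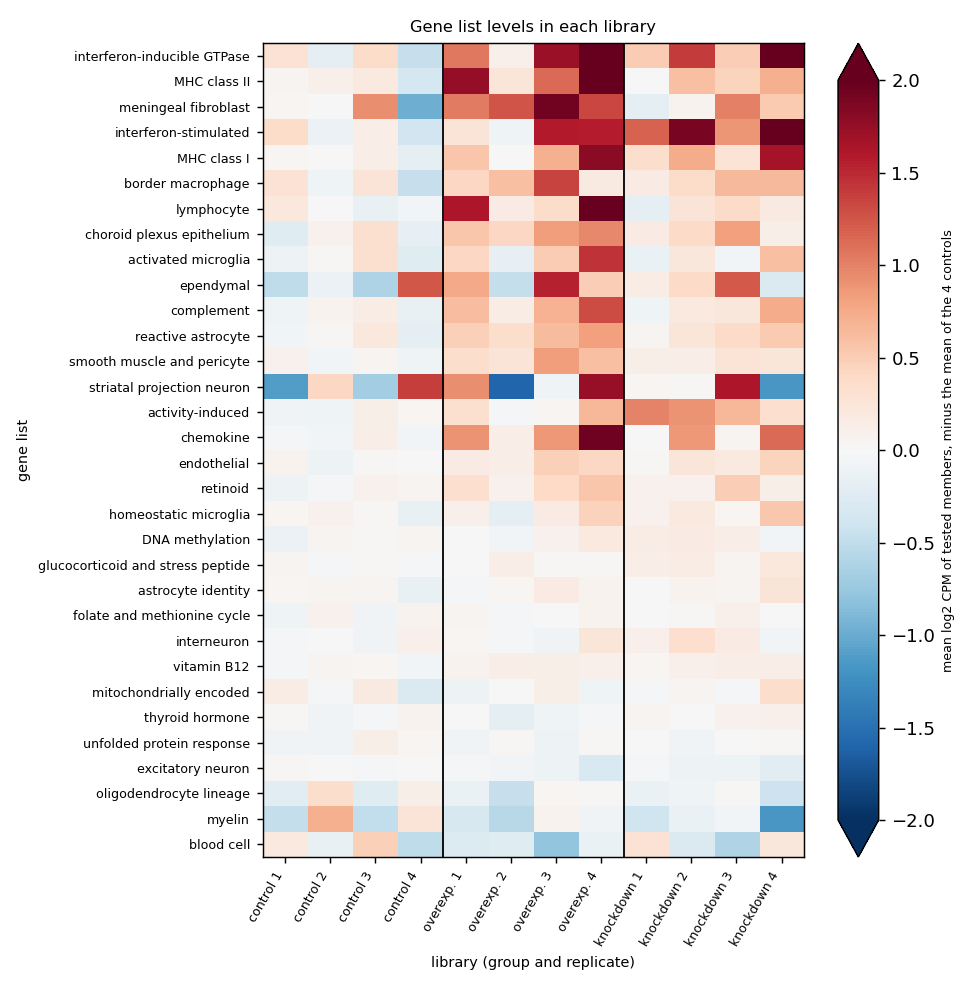
Mean log2 CPM of the tested members of each list in each of the 12 libraries, minus the mean of the 4 controls, with colours limited at 2 in either direction and vertical lines between the groups. Overexpression replicate 4 is strongest in class II and GTPase genes, replicate 3 in meningeal genes, and knockdown replicates 4 and 2 in interferon-stimulated genes, while vitamin B12, folate, thyroid hormone and astrocyte identity genes stay near 0 in each library.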

How the data were processed

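RNA of 12 prefrontal cortex samples was sequenced as poly(A) libraries with a directional kit and adaptors carrying molecular identifiers, per the labels' protocols. The authors deposited whole-number counts per gene, not normalized, and TPM values. Per the submitters' processing notes, the build was GRCm38 (mm10); DESeq2, featureCounts, UMI-tools and bcl2fastq 2.20.0.422 are listed without a role. No aligner, annotation release or strand setting is given in the sources used here.

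Counts were tested with edgeR 4.0.16 (R 4.3.3): TMM factors, filterByExpr by group, quasi-likelihood test on 3 group means over all 12 libraries, two-sided, Benjamini-Hochberg adjustment over 18289 genes, threshold 0.05. CPM used the TMM factors. Alternatives used DESeq2 1.42.0, limma 3.58.1 (voom, and TPM on log2(value + 0.1) or log2(value + 1)), other scaling and filters, a replicate block, the 8 libraries alone and each library left out. The scripts were tested on simulated data. Of 55401 identifiers 55141 matched a symbol. Named genes were Ttr, the 15 smallest p-values after it and list members chosen by role; the members and the 32 lists were chosen with earlier results of these data known. Other members named because their groups did not overlap were chosen after their values were seen, as were Anpep, Higd1b, Ighm, Trbc2, Cd4 and Jchain. The same holds for genes named because DESeq2 called them. GFP reads were not analysed here. Promoter windows come from RefSeq. Figures used matplotlib 3.10.9 (Python 3.11.15). Some results are not reported here.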

Additional observations from a re-analysis of the deposited data

Results flagged for a closer look

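Among 198 groups of 4 libraries, one per gene described and group, 21 held a library set apart from the other 3 by a gap of more than Dixon's limit. That is 10.6%, where chance gives about 5%. Overexpression replicate 4 was the library in 12 of them. It was high, in CPM, for H2-Aa (105), H2-Ab1 (82.9), Cd74 (262), Ciita (5.6), Igtp (54), Cd8a (3.46), Ccl5 (6.75), Cxcl9 (18.8), C3 (16.5), Cst7 (5.24) and Serpina3n (35.4), and low for Mtr (18.0).

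Control replicate 2 was high for Ttr (8.50 CPM) and C4b (47.0 CPM) and low for Cd8a (0.0425 CPM, a single count). Control replicate 4 was low for H2-K1 (24.0 CPM) and high for C3 (0.998 CPM). Overexpression replicate 2 was low for Vwf (11.5 CPM) and high for Klf9 (300.3 CPM), and overexpression replicate 3 was low for Hba-a1 (64.6 CPM) and high for Anpep (8.56 CPM). No test of a difference between groups under the same contrast applied here, since a single tissue and time point was studied.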

How the results depend on the processing

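The count of genes changed was 1 with RLE scaling and with the replicate block, 20 without a filter on low counts, 40 with DESeq2 (5330416C01Rik the single lower one), 0 with limma-voom (957 genes at an unadjusted p under 0.05) and 0 with the 8 libraries alone (1094 such genes). From TPM with limma it was 3 with a pseudocount of 0.1, with or without a filter (Ttr, Gm20650 and Gm23442), and 2 with a pseudocount of 1. Over single libraries left out it was 0 to 4, with Ccl8, Clec3b, Tagln and Ttr called without overexpression replicate 2, and 743 to 1562 genes at an unadjusted p under 0.05 where the count was 0. DESeq2 and edgeR without the filter shared 19 genes. Ttr kept a positive difference in every setting, of 6.39 to 9.02 over single libraries left out. It missed the threshold with limma-voom (7.83) and with the 8 libraries alone (7.01). It also missed it without control replicate 1, 3 or 4 or overexpression replicate 3 (edgeR adjusted p of 0.143, 0.0922, 0.162 and 0.0506). The same held without control replicate 4 and overexpression replicate 3 together (6.80, edgeR adjusted p = 0.442), where 0 genes were called and 557 had an unadjusted p under 0.05. With the replicate number as a block Ttr had 7.2 (edgeR adjusted p = 0.0181), and same-numbered libraries had correlations of -0.0348 to 0.16, not every library correlating best with its own number. The direction turned in 14 of the genes described, none of them called. Ranges of these genes are given over each single library left out and over control replicate 4 and overexpression replicate 3 left out together. The log2 values ran from -0.042 to 0.028 for Mtr, -0.81 to 0.63 for Lyve1 and -0.38 to 0.38 for Pf4. Those of Dio2 were -0.0057 to 0.21, of Hr -0.35 to 0.084 and of H2-DMa -0.046 to 0.39. Cst7 had -0.45 to 2.07, Gfap -0.0070 to 0.46 and Adora2a -0.33 to 1.59. Rgs5 had -0.037 to 0.14, Ighm -0.48 to 0.038 and Cd4 -0.22 to 1.14. Mtr had -0.0012 with DESeq2, and Lyve1 -0.41 with limma-voom and -0.087 from TPM. Without overexpression replicates 1 and 4 the values were -0.22 for H2-DMa, -0.64 for Cst7, -0.090 for Gfap, -1.19 for Adora2a, -0.25 for Rarb, -0.69 for Cd4, 0.12 for Hr and 0.030 for Klf9. This setting and the one without control replicate 4 and overexpression replicate 3 were chosen after seeing the data. The cause was not tested in any case. No setting moved the median of all genes beyond 0.051. Low counts limit Cd8a, Cd3e, Cxcl9, Ccl5, Lcn2 and Otx2.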
